A study of Homo sapiens with 32 samples.

Results

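DNA replication and S phase genes encode the proteins that mark replication origins, open and copy the DNA, supply deoxynucleotides, package the new strands and switch this programme on at the G1 to S boundary. The 47 genes described here share this function and were chosen with earlier results of these data known. All 47 were measured among the 19775 genes of the arrays. Each is represented by the probe set that carries exactly its symbol, and for the 26 genes with more than 1 such probe set by the one with the highest mean over the 32 arrays. Levels are log2 intensities, and differences are log2 values in the direction first group minus second, ± the standard error from limma. A change is called at an adjusted p under 0.05 over all genes tested.

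Transcripts were measured in 2 human lung cancer cell lines, A549, from an adenocarcinoma, and H460a, from a large cell carcinoma, which the text for the whole series calls H460. Cells plated at 35% confluency rested overnight and then received 2 µM RO4929097, an inhibitor of the protease gamma-secretase (GSI) that blocks Notch receptor cleavage, or vehicle. With 4 arrays each, the groups were A549 with GSI for 24 h, A549 with vehicle for 24 h, A549 with GSI for 6 h, A549 with vehicle for 6 h, and the same 4 groups of H460a. Whether the replicates of a group were grown apart is not stated in any label, so each p-value speaks only to array-to-array spread, part of which may be technical.

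In G1, the origin recognition complex together with CDC6 and CDT1 loads the MCM helicase onto origins, and at S phase entry CDC45, the GINS complex and MCM10 turn the loaded helicase into an active one. The clamp PCNA, its loader and the polymerases then copy the DNA. Many of these genes are targets of E2F transcription factors, which the retinoblastoma protein restrains until cyclin D and cyclin E kinases inactivate it, and dividing cancer cells carry high levels of their transcripts. In RNA from whole cultures, fewer cells in S phase and less RNA per cell cannot be told apart.

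Promoter letters of 8 members are printed because the E2F type motif is the sequence feature that this gene class is known for. The motif searched was TTT and CGC with a pair of bases between them that are each C or G, on both strands, in RefSeq windows of GRCh38.p14 from 250 bases before to 50 after each annotated start. Windows were found for 40 of the 47 members. The motif was in 57.5% of those genes (23 of 40), against 12.5% of the listed G2 and mitosis genes with a window (3 of 24) and 3.99% of all genes in the table. Capitals mark the motif as it reads on the strand of the gene, and MCM6 has 2 overlapping copies. All 8 stretches lie before the annotated start, outside the gene.
GINS2, chr16:85688958-85689005, minus strand: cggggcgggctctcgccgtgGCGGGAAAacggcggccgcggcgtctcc
POLA2, chr11:65261889-65261936, plus strand: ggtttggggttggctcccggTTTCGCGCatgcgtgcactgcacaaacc
MCM7, chr7:100101398-100101426, minus strand: cggtcacgtggggggcgacgTTTCGCGCc
MCM6, chr2:135876502-135876553, minus strand: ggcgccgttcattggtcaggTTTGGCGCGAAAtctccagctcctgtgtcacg
MCM3, chr6:52284889-52284936, minus strand: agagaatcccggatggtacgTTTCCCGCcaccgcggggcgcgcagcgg
RFC3, chr13:33818074-33818121, plus strand: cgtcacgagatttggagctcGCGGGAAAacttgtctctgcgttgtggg
PCNA, chr20:5126654-5126701, minus strand: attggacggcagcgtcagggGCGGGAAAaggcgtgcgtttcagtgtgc
CDT1, chr16:88803734-88803781, plus strand: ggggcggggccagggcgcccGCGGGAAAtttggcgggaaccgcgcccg
The first 6 were chosen by rule. They had the largest falls at 24 h in vehicle-treated H460a among members with a motif stretch before the start and outside the gene. PCNA and CDT1 were added after their values were seen. A match to the letters is a description and not a binding site.

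The motif was compared with 2 other short promoter letters. CCAAT on either strand was in 57.5% of the members with a window, against 79.2% of the G2 and mitosis genes and 39.7% of all genes. The cell cycle homology letters TTTGAA or TTCGAA were in 5% of the members (2 of 40), against 79.2% of the G2 and mitosis genes (19 of 24) and 19.5% of all genes. Of 32 E2F type motif starts in the members, 20 lay within 100 bases before an annotated start and 5 after it.

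Some arrays stood apart before any comparison. Mean intensity was 468 to 496 on the 4 arrays of A549 with vehicle for 6 h, and 496, 531, 589 and 583 on those of A549 with GSI for 6 h, against 570 to 613 on the other 24. Replicate 3 of H460a with vehicle for 6 h had a difference of 2.19 between the 3′ and 5′ actin probe sets, against 0.14 to 0.42 on the other arrays, a sign of more degraded RNA. KRT8 and KRT18, keratins of simple epithelia, were at 12.3 or above on every array. CDH1 was at 9.59 to 10.9 in A549 and at 4.06 to 5.0 in H460a, and EPCAM at 5.17 to 6.11 in A549 and 4.54 to 5.03 in H460a. Of the markers of other cell types, the leukocyte genes PTPRC, CD3E and CD14 lay between 4.94 and 9.24, the fibroblast genes COL1A1, COL1A2 and DCN between 6.32 and 9.49, and the endothelial genes PECAM1 and CDH5 between 4.62 and 7.98 over all arrays. Their part in the results was not tested. HES1, a Notch target, was 2.18 ± 0.13 lower with GSI in A549 at 24 h (adjusted p = 1.29e-13), and in H460a it was at 6.15 ± 0.27 with GSI and 6.44 ± 0.18 with vehicle (SD, n = 4 each, adjusted p = 0.823).

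**Figure D1:**
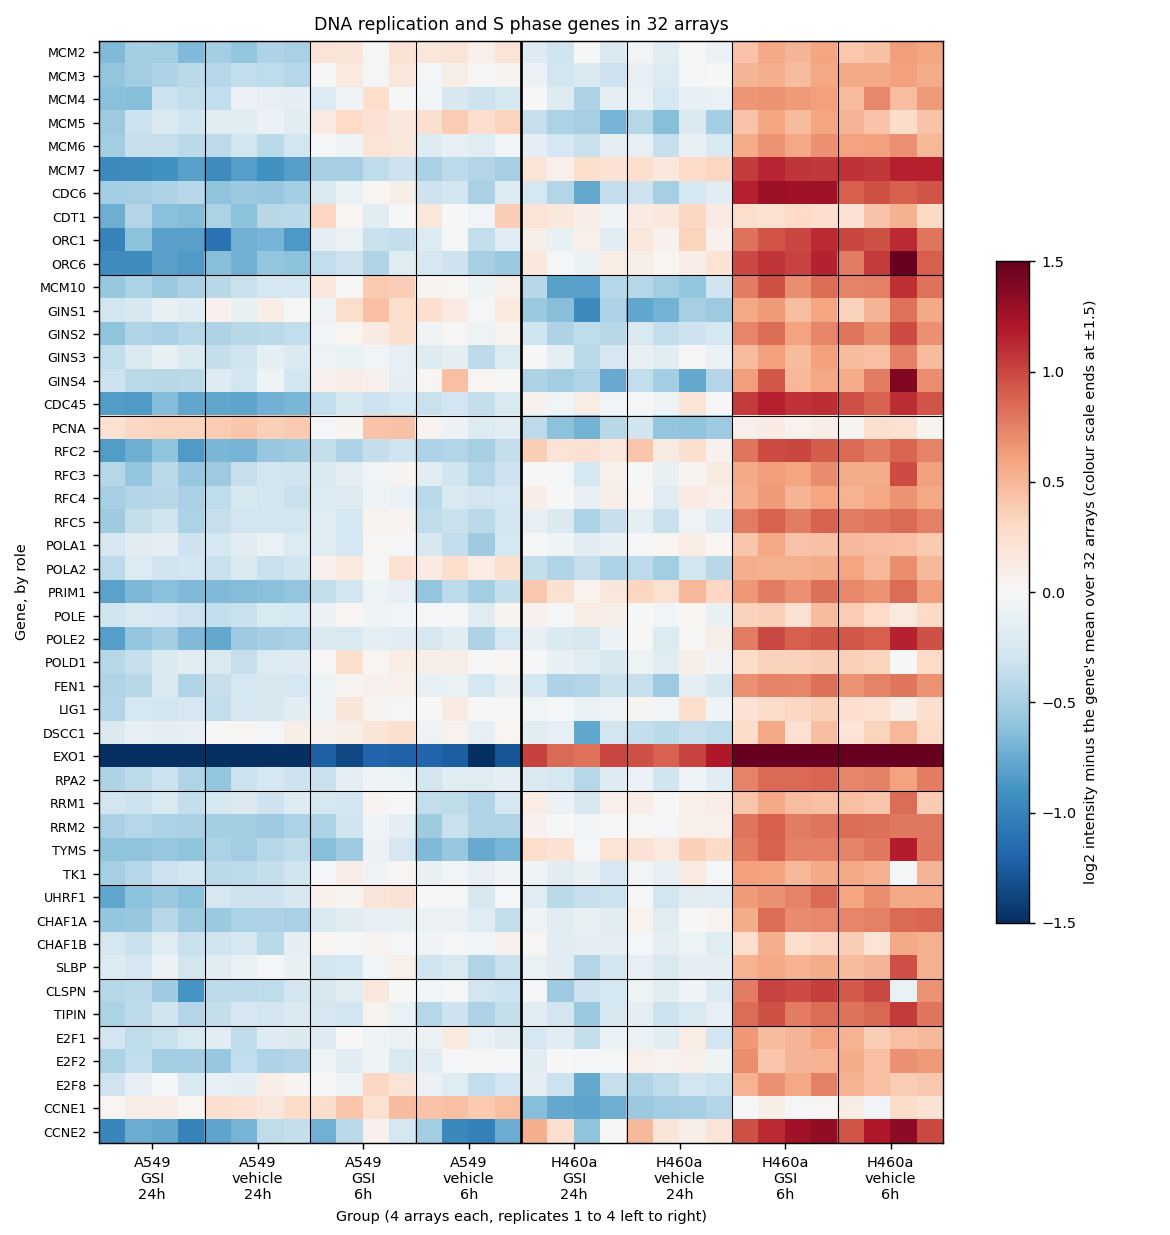
Levels of the 47 genes (down the page, by role, with lines between roles) in the 32 arrays (across, 4 per group), as log2 intensity minus the mean of the gene over all arrays. The colour scale ends at ±1.5 while EXO1 goes beyond it. The 8 arrays of H460a at 6 h are the highest for most genes, and the 8 arrays of A549 at 24 h are the lowest for many.

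In vehicle-treated H460a, most of the members were lower at 24 h than at 6 h. Of the 47 genes, 45 fell and 0 rose, in a comparison in which 30.4% of all genes changed and 15.3% fell. The median difference of the members was -0.77, against 0.01 for all genes, and the range was -1.38 to -0.15. All 24 h arrays lay below all 6 h arrays for 42 of the 47 genes, and for 14.5% of all genes. LIG1, which seals nicks between Okazaki fragments, and CDT1 did not pass the test, at -0.15 ± 0.07 (adjusted p = 0.0913) and -0.19 ± 0.09 (adjusted p = 0.124). Without the array of replicate 3 at 6 h that had the high actin ratio, 46 genes fell.

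Of the genes that build and fire the helicase, GINS4, a subunit of the GINS complex, fell the most. It was at 7.58, 7.44, 7.19 and 7.51 at 24 h, against 8.51, 8.72, 9.34 and 8.65 at 6 h. Every 24 h array was below every 6 h array, and the difference of -1.38 ± 0.12 (adjusted p = 1.24e-10) became -1.20 without replicate 3 at 6 h, the highest of its group, and -0.61 as the mean of the probe sets of the gene. MCM10, which helps the helicase to start unwinding, was at 8.55, 8.46, 8.40 and 8.68 at 24 h, against 9.73, 9.73, 10.08 and 9.80 at 6 h. Its groups were also apart, by -1.31 ± 0.09 (adjusted p = 7.31e-13). GINS1 stood at 9.51, 9.58, 9.79 and 9.74 at 24 h and at 10.63, 10.79, 11.10 and 10.85 at 6 h. That difference was -1.19 ± 0.10 (adjusted p = 3.49e-11). All 6 genes of this helicase activation group fell, with a median of -1.14.

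Licensing factors followed the same direction, with 9 of 10 lower and a median of -0.80. CDC6, the loader of the helicase at origins, was at 8.88, 8.68, 8.92 and 9.03 at 24 h, against 10.08, 10.13, 10.08 and 10.12 at 6 h. Its 6 h arrays lay within 0.1 of each other, and the difference was -1.23 ± 0.08 (adjusted p = 1.92e-13). CDT1, the partner of CDC6 in loading, was at 9.19, 9.22, 9.37 and 9.18 at 24 h and at 9.27, 9.48, 9.60 and 9.36 at 6 h, so its arrays overlapped. The 6 helicase subunits fell by 0.60 (MCM2) to 0.86 (MCM7), and ORC1 and ORC6 of the origin recognition complex by 0.81 and 0.95.

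Among the 16 polymerase, clamp and fork genes 15 fell, with a median of -0.65. EXO1, a 5′ to 3′ exonuclease of mismatch repair and end resection, was at 10.54, 10.46, 10.59 and 10.77 at 24 h, against 11.56, 11.64, 11.95 and 11.62 at 6 h. These groups did not overlap, and the difference was -1.10 ± 0.09 (adjusted p = 1.05e-11). PCNA was at 12.98, 12.69, 12.67 and 12.74 at 24 h and at 13.32, 13.53, 13.51 and 13.32 at 6 h. Its 24 h arrays were all lower, by -0.65 ± 0.09 in the mean (adjusted p = 5.23e-07). FEN1, which trims the flaps of Okazaki fragments, POLE2, a small subunit of polymerase epsilon, and RFC5, of the clamp loader, fell by 1.04, 1.01 and 0.99. The catalytic subunits POLE, POLD1 and POLA1 fell less, by 0.31, 0.30 and 0.41.

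The 4 nucleotide supply genes, the 4 chromatin and histone mRNA genes and the 2 checkpoint genes all fell. RRM2, the regulated subunit of ribonucleotide reductase, was at 12.60, 12.54, 12.65 and 12.65 at 24 h, against 13.42, 13.40, 13.37 and 13.37 at 6 h, a difference of -0.78 ± 0.06 (adjusted p = 1.33e-11) between groups with little spread. UHRF1, which recruits the maintenance DNA methyltransferase to newly copied DNA, was at 10.30, 10.03, 10.15 and 10.14 at 24 h and at 10.90, 11, 10.88 and 10.89 at 6 h. It fell by 0.77 (SE 0.07, adjusted p = 9.84e-11), with no overlap. TIPIN, a fork protection factor, fell by 1.09, and CLSPN, the mediator of checkpoint kinase activation at stalled forks, by 0.75 with overlapping arrays. Only replicate 3 at 6 h, the array with the high actin ratio, overlapped. It was at 7.18 for CLSPN, against 7.95 to 8.27 on the others at 6 h and 7.08 to 7.22 at 24 h.

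Regulators of S phase entry were lower as well. Values of E2F1, an activating E2F factor, were 9.08, 9.01, 9.28 and 8.88 at 24 h, against 9.69, 9.54, 9.62 and 9.66 at 6 h, and the difference was -0.56 ± 0.08 (adjusted p = 4.14e-07). For CCNE1, cyclin E1, the arrays read 8.44, 8.48, 8.49 and 8.56 at 24 h and 9.11, 8.96, 9.27 and 9.21 at 6 h, a difference of -0.64 ± 0.06 (adjusted p = 5.81e-10). Cyclin E2, CCNE2, was at 8.31, 8.01, 7.91 and 8.01 at 24 h and at 8.77, 9.02, 9.16 and 8.82 at 6 h, a difference of -0.88 ± 0.17 (adjusted p = 6.60e-05). The groups of these 3 genes did not overlap. E2F2, another activating factor, fell by 0.54, and E2F8, a repressive one, by 0.80.

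**Figure D2:**
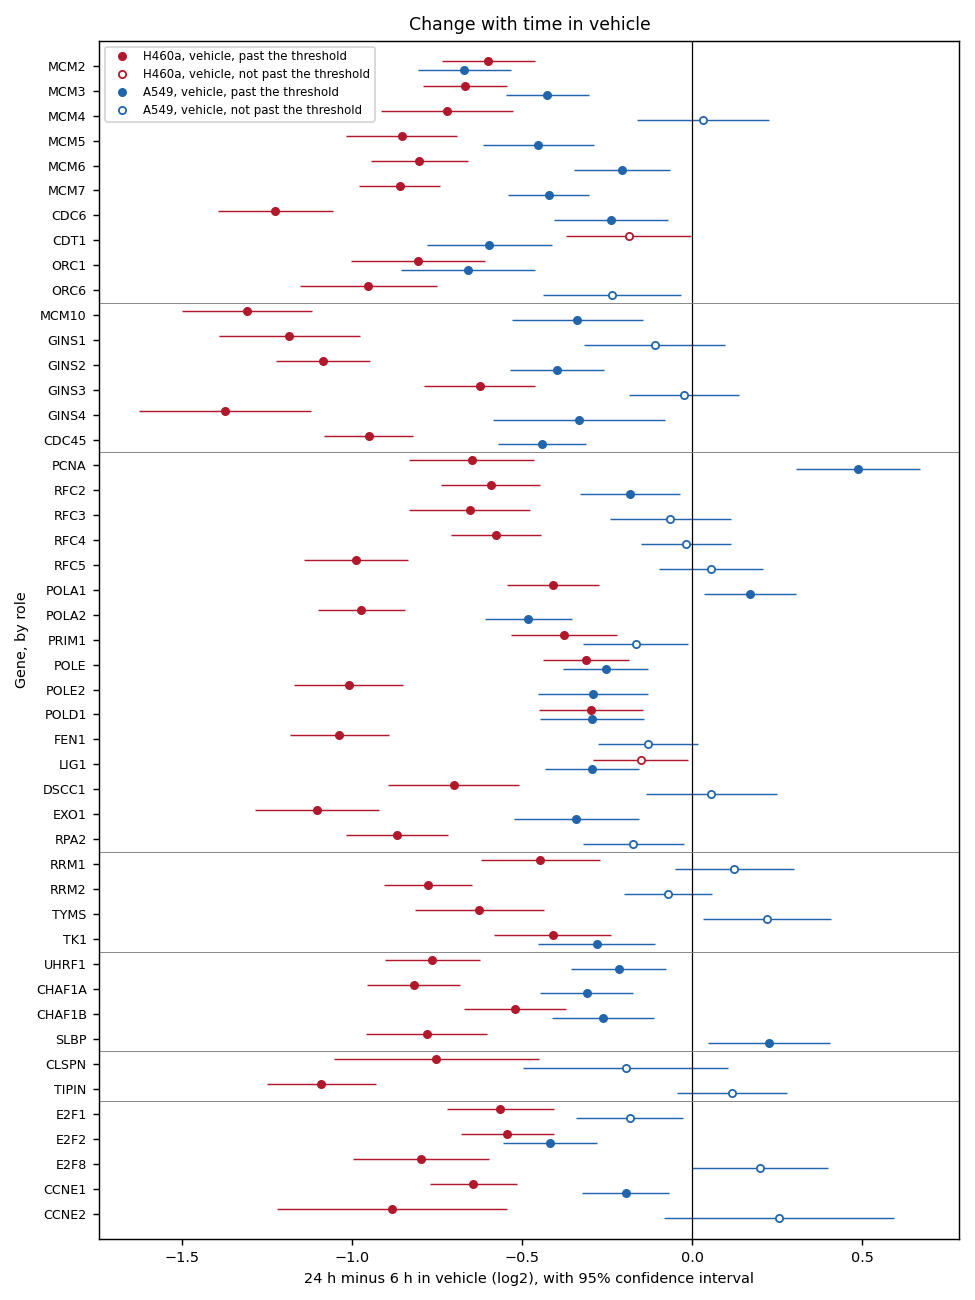
Difference between 24 h and 6 h in vehicle (across, log2, with the 95% confidence interval from limma) for each of the 47 genes (down the page, by role), in H460a (red) and A549 (blue). Filled points passed the test. All 47 H460a points lie left of 0, while A549 points run from -0.67 for MCM2 to 0.49 for PCNA.

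The arrays with GSI are other arrays at the same times, compared in a contrast added after the data were seen. In H460a with GSI, 46 genes fell and 0 rose at 24 h relative to 6 h, where 32.9% of all genes changed. All 24 h arrays lay below all 6 h arrays for the 47 members, and for 18.2% of all genes. The median was -0.84, and only CDT1 did not pass, at -0.16 ± 0.09 (adjusted p = 0.192). CDC6 was at 8.92, 8.74, 8.41 and 8.82 at 24 h, against 10.35, 10.48, 10.44 and 10.45 at 6 h, the widest gap of any member at -1.71 ± 0.08 (adjusted p = 1.41e-16). All 45 genes that fell with vehicle also fell with GSI, and across the 47 genes the 2 sets of differences correlated at Spearman 0.91, a description over genes, which are not independent replicates.

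In vehicle-treated A549 the change with time was smaller and mixed. Of the 47 genes 25 fell and 3 rose at 24 h relative to 6 h, where 44.2% of all genes changed, 29.2% rising and 15.0% falling. The median of the members was -0.21, against 0.01 for all genes. The 6 h arrays in this comparison are those with the low mean intensity, and after quantile normalization 39 members fell and 0 rose, with a median of -0.44. Under that scaling 3277 genes rose and 4370 fell of all tested, against 5766 and 2965 with the deposited values. The part of intensity in this comparison was not tested further.

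Licensing and helicase genes led the falls in A549. MCM2, a helicase subunit, was at 10.05, 9.97, 10.10 and 10.07 at 24 h, against 10.72, 10.75, 10.63 and 10.76 at 6 h, a difference of -0.67 ± 0.07 (adjusted p = 3.81e-09). ORC1, the largest subunit of the origin recognition complex, was at 6.90, 7.28, 7.30 and 7.14 at 24 h and at 7.80, 7.99, 7.63 and 7.84 at 6 h, which is -0.66 ± 0.10 (adjusted p = 1.82e-06). In the same direction, CDT1 was at 8.59, 8.45, 8.64 and 8.66 at 24 h and at 9.23, 9.06, 9.02 and 9.42 at 6 h. That gap, -0.60 ± 0.09 (adjusted p = 3.04e-06), separated the groups, unlike in H460a. POLA2, a subunit of the polymerase alpha and primase complex, and MCM5 fell by 0.48 and 0.45, each without overlap.

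PCNA, SLBP and POLA1 were the genes that rose with the deposited values. PCNA was at 13.66, 13.69, 13.64 and 13.68 at 24 h, against 13.34, 13.19, 13.08 and 13.12 at 6 h, a difference of 0.49 ± 0.09 (adjusted p = 4.75e-05). After quantile normalization it was 0.01. SLBP, which binds the stem-loop of histone mRNAs, was at 10.57, 10.62, 10.69 and 10.61 at 24 h and 10.43, 10.50, 10.27 and 10.38 at 6 h, without overlap. POLA1, the catalytic subunit of polymerase alpha, was at 9.05, 9.14, 9.21 and 9.11 at 24 h and at 9.07, 8.95, 8.78 and 9.05 at 6 h, with overlap. Their differences of 0.23 ± 0.09 (adjusted p = 0.0368) and 0.17 ± 0.07 (adjusted p = 0.0395) turned to -0.05 and -0.04 after quantile normalization. CDC6 (-0.24), UHRF1 (-0.22) and CCNE1 (-0.20) fell, while E2F1 (-0.18), RRM2 (-0.07) and CCNE2 (0.26) did not pass.

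With GSI, 41 genes fell in A549 at 24 h relative to 6 h and 0 rose, where 18.7% of all genes changed. The median was -0.40, and all 25 genes that fell with vehicle also fell with GSI. After quantile normalization 1956 of all genes rose and 1500 fell, against 2859 and 834 with the deposited values. UHRF1 was at 9.53, 9.69, 9.75 and 9.69 at 24 h and 10.37, 10.35, 10.49 and 10.53 at 6 h, the largest difference at -0.77 ± 0.07 (adjusted p = 8.44e-10). In a fit without replicates 3 and 4 with GSI at 6 h, the brighter arrays of that group, 33 genes fell and 1 rose. The H460a array with the high actin ratio was left out of that fit too. The gene that rose was PCNA, at 0.30, against 0.08 with all arrays.

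**Figure D3:**
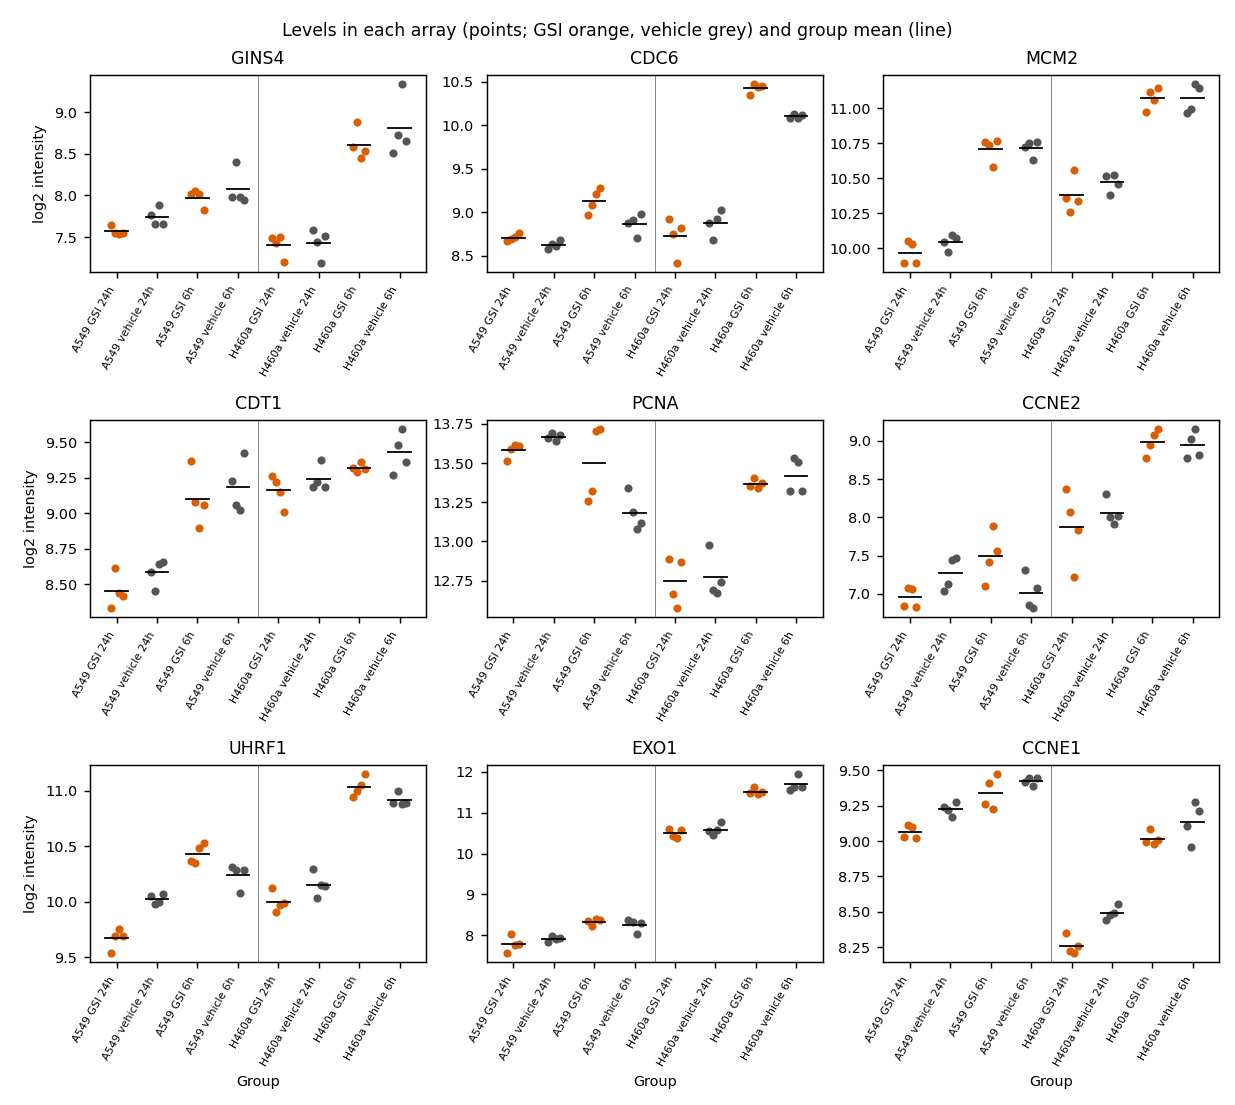
Log2 intensity of 9 genes in each of the 32 arrays (points, GSI orange, vehicle grey) with the group mean (line), A549 left and H460a right of the vertical line in each panel. The vertical scale differs between panels and does not start at 0. In H460a the 24 h arrays of GINS4, CDC6, PCNA and EXO1 all lie below the 6 h arrays, while in A549 PCNA with vehicle is higher at 24 h.

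The change with time in vehicle differed between the lines for most members. The difference between 24 h and 6 h was lower in H460a than in A549 for 37 genes and higher for 1, where 35.5% of all genes differed, and the median was -0.58. TIPIN fell by 1.09 in H460a, against a difference of 0.12 in A549, and the gap was -1.21 ± 0.11. CCNE2, PCNA and GINS1 followed, with gaps of -1.14 ± 0.23, -1.14 ± 0.13 and -1.07 ± 0.14. A dimmer probe set of CCNE2 was at -0.76 in H460a and -0.34 in A549, against -0.88 and 0.26 for the one used. The gap of CDT1 was 0.41 ± 0.13 (adjusted p = 0.0123), in the other direction. After quantile normalization 28 genes were lower, 3 higher, MCM2, CDT1 and LIG1, and the median was -0.31. Over all genes 3325 were higher and 2803 lower under that scaling, against 2202 and 4821 with the deposited values. MCM2 (0.07), ORC1 (-0.15) and POLE (-0.06) did not pass with the deposited values.

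With the deposited values, more members were lower than higher in A549 at both times, and the median gap between the lines was wider at 6 h. At 24 h with vehicle, 7 genes were higher and 26 lower in A549 than in H460a, where 46.9% of all genes differed, and the median was -0.23. At 6 h with vehicle, 1 gene was higher and 45 lower in A549, where 57.1% of all genes differed, and the median was -0.80. These are the vehicle arrays of the time comparisons, so the differences are not independent of them. After quantile normalization 3 genes were higher and 36 lower at 6 h, with a median of -0.60. Over all genes 6485 were higher and 4533 lower under that scaling, against 5635 and 5664 with the deposited values.

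EXO1 separated the lines the most at both times. At 24 h it was at 7.85, 7.97, 7.91 and 7.94 in A549, against 10.54, 10.46, 10.59 and 10.77 in H460a, 6.38-fold lower in A549 (-2.67 ± 0.09, adjusted p = 4.53e-23). At 6 h it was at 8.38, 8.33, 8.03 and 8.29 in A549, against 11.56, 11.64, 11.95 and 11.62 in H460a, 10.8-fold lower in A549 (-3.44 ± 0.09). MCM7 was at 10.52, 10.64, 10.56 and 10.64 in A549 at 24 h, against 11.72, 11.63, 11.75 and 11.79 in H460a, and the difference was -1.13 ± 0.06 (adjusted p = 7.38e-18). It was -1.57 ± 0.06 at 6 h. A549 arrays were all below H460a arrays for both genes.

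Cyclin E genes and the clamp went different ways. CCNE1 was at 9.24, 9.22, 9.17 and 9.28 in A549 at 24 h, against 8.44, 8.48, 8.49 and 8.56 in H460a, 0.74 ± 0.06 higher in A549 (adjusted p = 4.60e-12). At 6 h it was 0.29 ± 0.06 higher in A549, the single member higher there. A dimmer probe set of CCNE1 was at -0.31 at 24 h and -0.01 at 6 h. With the mean of all probe sets of a gene, CCNE1 did not pass at 6 h. CCNE2 was at 7.03, 7.13, 7.44 and 7.47 in A549 at 24 h and 8.31, 8.01, 7.91 and 8.01 in H460a, a difference of -0.79 ± 0.17 (adjusted p = 1.34e-04). PCNA, at 13.66, 13.69, 13.64 and 13.68 in A549 at 24 h and 12.98, 12.69, 12.67 and 12.74 in H460a, was higher in A549 by 0.90 ± 0.09 (adjusted p = 1.93e-10). At 6 h the PCNA difference was -0.24 ± 0.09, and after quantile normalization 0.29. GINS1, DSCC1, E2F8, GINS4 and MCM5 were the other genes higher in A549 at 24 h, by 0.64, 0.40, 0.33, 0.31 and 0.30.

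The comparisons of GSI with vehicle are given beside the share of all genes called in each. In A549 at 24 h, 1 of the 47 genes (2.13%) passed the test, and it fell. Of all genes 2.21% changed, 1.32% rising and 0.885% falling. UHRF1 was at 9.53, 9.69, 9.75 and 9.69 with GSI, against 9.98 to 10.07 on the 4 arrays with vehicle. The groups did not overlap, and UHRF1 fell by 0.36 (SE 0.07, adjusted p = 0.0017), 1.28-fold. The members ran from -0.36 to 0.08 with a median of -0.09, 40 of them below 0. An unadjusted p under 0.05 was found for 8 members, all lower, and for 11.6% of all genes, 1383 higher and 917 lower. All GSI arrays lay below all vehicle arrays for 12 members and for 5.14% of all genes. MCM4, next to UHRF1 in p, was at 9.59, 9.58, 9.89 and 9.84 with GSI and 9.85, 10.13, 10.10 and 10.08 with vehicle (-0.31 ± 0.10, adjusted p = 0.0843). The other probe sets of MCM4 were at -0.14, -0.15, -0.14 and 0.11 in this comparison.

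In A549 at 6 h, 10 of the 47 genes rose with GSI and 0 fell, where 13.1% of all genes changed and 11.6% rose. E2F8 was at 7.68, 7.59, 7.98 and 7.88 with GSI, against 7.59, 7.5, 7.31 and 7.39 with vehicle (0.34 ± 0.10, adjusted p = 0.0219). PCNA was at 13.25, 13.32, 13.70 and 13.72 with GSI, against 13.34, 13.19, 13.08 and 13.12 with vehicle (0.32 ± 0.09, adjusted p = 0.0192). In both genes replicates 3 and 4 with GSI were the highest, and those are the arrays of mean intensity 589 and 583. TYMS, CDC6, RFC5, PRIM1, TIPIN, POLA1, MCM6 and RRM2 rose by 0.20 to 0.29. None of the 10 passed in a fit without GSI replicates 3 and 4 and the H460a array with the high actin ratio. The same held without any 1 of GSI replicate 3, GSI replicate 4 and vehicle replicate 3. The count was 0 each by limma. With all arrays, 19 of 47 members, all higher, and 27.9% of all genes, 4386 higher and 1140 lower, had an unadjusted p under 0.05. After quantile normalization 0 rose and CCNE1 fell by 0.22, and over all genes 265 rose and 292 fell, against 2301 and 299 with the deposited values.

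In H460a, limma called 0 of the 47 genes at either time. At 24 h 0.00506% of all genes changed (1 gene). An unadjusted p under 0.05 was found for 3 members, all lower, and 5.79% of all genes, 643 higher and 502 lower. The members ran from -0.23 to 0.09 with a median of -0.09. CCNE1, at 8.35, 8.22, 8.21 and 8.26 with GSI and 8.44, 8.48, 8.49 and 8.56 with vehicle, did not overlap but did not pass (-0.23 ± 0.06, adjusted p = 0.371). At 6 h 0.0961% of all genes changed, and the range of the members was -0.20 to 0.33. There 3 members, all higher, and 11.1% of all genes, 1361 higher and 840 lower, had an unadjusted p under 0.05. CDC6 was at 10.35, 10.48, 10.44 and 10.45 with GSI and 10.08, 10.13, 10.08 and 10.12 with vehicle, again apart without passing (0.33 ± 0.08, adjusted p = 0.153). The 95% interval of a member's GSI effect in these 4 comparisons reached at most 0.34 to either side of its estimate.

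The GSI effects were compared with each other as well. Between lines at 24 h, 0 members differed by limma, where 0.637% of all genes did and 1 member, with 9.02% of all genes, had an unadjusted p under 0.05. Between times in A549, the effect was lower at 24 h than at 6 h for 5 genes, where 3.71% of all genes differed. These were CCNE2 (-0.80 ± 0.23), UHRF1 (-0.55 ± 0.10), MCM4 (-0.52 ± 0.13), E2F8 (-0.48 ± 0.14) and RFC5 (-0.38 ± 0.11). The count was 1 without GSI replicates 3 and 4 at 6 h and the H460a array with the high actin ratio. With the mean of all probe sets of a gene the count was also 1, and CCNE2, MCM4, E2F8 and RFC5 no longer passed. Leaving out single A549 arrays gave 1 to 12, and over all genes 228 were higher and 200 lower after quantile normalization, against 130 and 603 with the deposited values. Between times in H460a, 0 members differed by limma, where 0.0101% of all genes did and 6 members, with 7.62% of all genes, had an unadjusted p under 0.05.

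**Figure D4:**
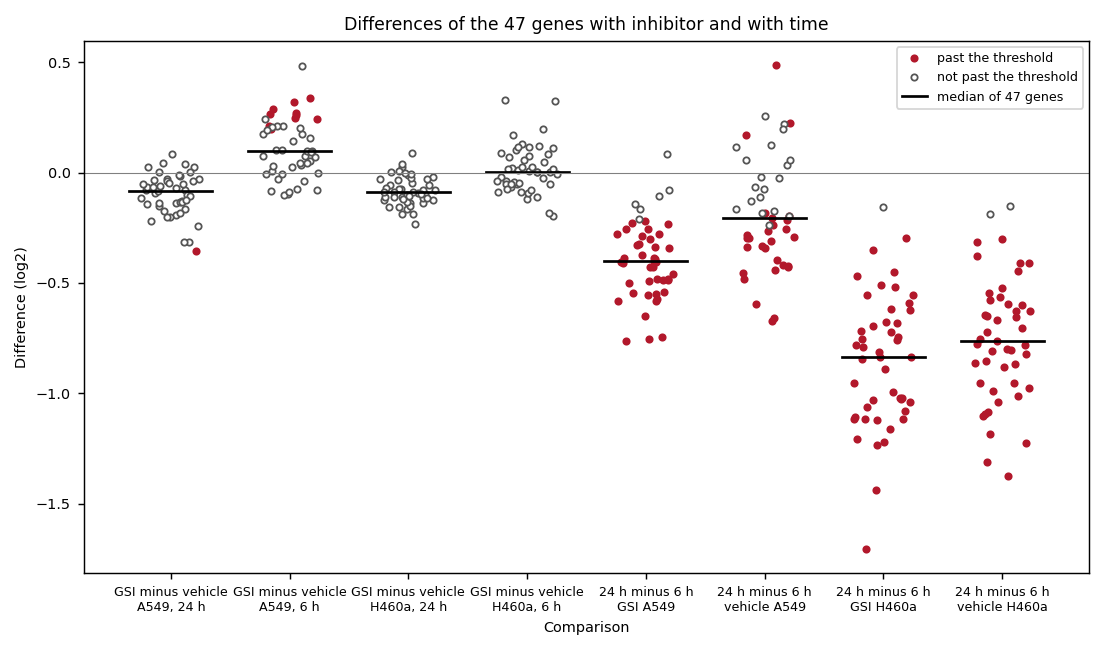
Differences (log2) of the 47 genes (points, filled where they passed the test) with GSI against vehicle in each line and time (left 4 columns) and at 24 h against 6 h in each line and treatment (right 4 columns), with the median (line). GSI columns have medians of -0.09 in both lines at 24 h, and of 0.10 in A549 and 0.004 in H460a at 6 h. In A549 at 6 h 10 genes passed the test with GSI. The H460a time columns have medians of -0.84 and -0.77.

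Genes around the replication programme were read from lists written with these results known. In vehicle-treated H460a at 24 h relative to 6 h, 23 of 30 other replication factors fell and 2 rose, with a median of -0.46. Of all genes 15.3% fell and 15.1% rose in this comparison. MCM8, a helicase paralogue, fell by 0.98 and GMNN, the inhibitor of CDT1, by 0.87, while POLD4, a small subunit of polymerase delta, and RPA3 rose by 0.97 and 0.52. Of 18 other nucleotide, chromatin and repair genes of S phase 12 fell, among them HELLS by 0.83 and ASF1B by 0.74. Of 30 G2 and mitosis genes 26 fell and 0 rose, with a median of -0.43, and CDC20 and CCNB1 fell by 1.15 and 0.90.

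G1 to S regulators in H460a were mixed, with 14 of 27 lower and 4 higher at 24 h. CDC25A, a phosphatase that activates cyclin E and cyclin A kinases, fell by 1.30 and CCND3, a D cyclin, by 0.98. CDKN1B, which encodes the kinase inhibitor p27, rose by 0.87 and RBL2, the retinoblastoma relative p130, by 0.79. MYC rose by 0.21, CCND1 fell by 0.29 and CDKN1A, the kinase inhibitor p21, fell by 0.16.

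In vehicle-treated A549, CDKN1B and RBL2 rose by 1.07 and 0.76 at 24 h and RB1 by 0.76, while 9 of 27 G1 to S regulators rose and 4 fell. The other replication factors there had 11 higher and 5 lower of 30, and the G2 and mitosis genes 10 higher and 6 lower of 30, with medians of 0.12 and 0.06. Of all genes 29.2% rose and 15.0% fell in this comparison. The 47 members, with 3 higher and 25 lower, had a median of -0.21 there, and no test was made between lists. These are the deposited values. After quantile normalization 3277 of all genes rose and 4370 fell, against 5766 and 2965, and the lists were not recounted. With GSI at 24 h in A549, 0 of the 30 other replication factors and 1 of the 30 G2 and mitosis genes passed, KIF23, a mitotic kinesin, at -0.34 (limma, with 5 and 5 at an unadjusted p under 0.05). Of all genes 2.21% passed there, and 11.6% had an unadjusted p under 0.05, 1383 higher and 917 lower. Of the 5 other replication factors at that p, 2 were higher and 3 lower, and the 5 G2 and mitosis genes were lower.

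Promoter letters and the change with time were set side by side without a test. The 23 members with an E2F type motif had a median difference of -0.67 between 24 h and 6 h in vehicle-treated H460a and of -0.24 in A549. The 17 members with a window but no motif had -0.78 in H460a and -0.20 in A549. The CDT1 window, with the motif at position -35 from the start, belongs to a gene at -0.19 in H460a and -0.60 in A549. The PCNA window, with the same 8 letters at position -59, belongs to a gene at -0.65 in H460a and 0.49 in A549.

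**Figure D5:**
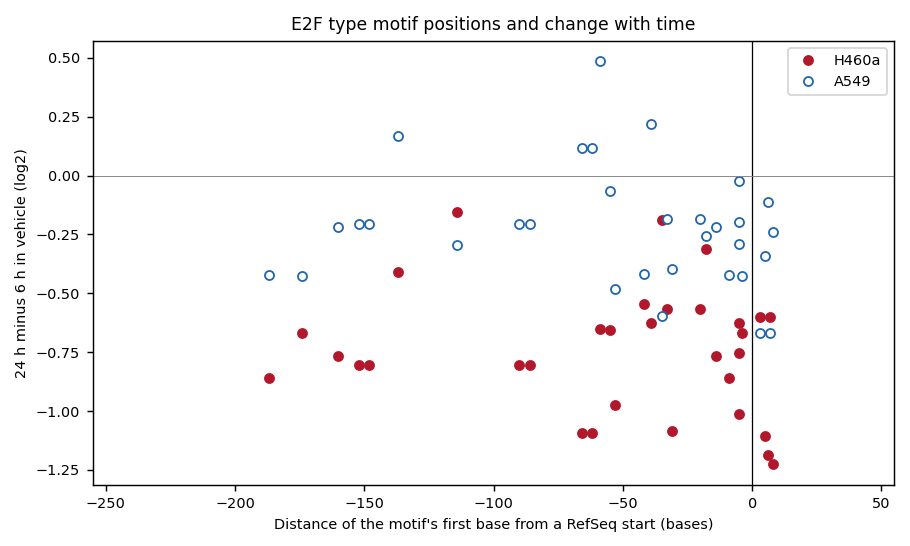
Distance of each E2F type motif from an annotated RefSeq start (across, in bases, negative before the start) and the difference between 24 h and 6 h in vehicle of the gene that holds it (up, log2), in H460a (filled) and A549 (open). A gene with several motifs has a point for each. Most motifs lie within 100 bases before the start.

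Other probe sets of the members were read as a check. Of 41 further probe sets of the genes that changed with time in vehicle-treated H460a, 37 had the sign of the one used, and 21 of 22 among those brighter than the median gene, at 7.58. In A549 20 of 22 did, and at 6 h between the lines 31 of 41, or 21 of 22 of the brighter ones.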

How the data were processed

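RNA of 32 samples was hybridised to Affymetrix arrays, 4 in each of 8 groups. The deposited intensity values come from RMA, per the submitters' processing notes, and their linear scale was judged from the values, so log2 was taken. No other step of the authors' processing is given in the sources used here. RMA had set the arrays on a common scale before deposit, yet mean intensity still differed between groups.

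Of the probe sets, 62 controls, 1801 with several gene symbols and 11721 with none were left out, and 41091 with 1 symbol gave 19775 genes, each by its probe set of highest mean. A single limma model over all 8 groups (limma 3.58.1, R 4.3.3) gave 14 comparisons, 3 of them added after the data were seen, with empirical Bayes variances and Benjamini-Hochberg adjusted p-values over all genes at a threshold of 0.05. The model was tested on simulated data. The number of arrays limits the precision, and a difference between 2 groups had a median standard error of 0.087.

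The members and all gene lists were chosen with earlier results of these data known. The lists of other replication factors (30 of 30 measured), other nucleotide supply, chromatin and repair genes of S phase (18 of 21), G1 to S regulators (27 of 28) and G2 and mitosis genes (30 of 30) were counted without a test. Named in the text were up to 5 rises and 5 falls past the threshold for each comparison, a few fixed genes (UHRF1, E2F1, CCNE1, CCNE2, PCNA, RRM2, CDC6, HES1, CDKN1A, MYC and CCND1) and up to 4 genes of each further list. TIPIN, LIG1, MCM4 as a gene that did not pass, and further examples were named after their values were seen.

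Groups came from the sample titles. A sample description that speaks of embryos was not used. The deviations of arrays of the same replicate number had correlations from -0.35 to 0.32. In every comparison the lowest was 0.0051 or less, so the numbers were not taken to pair the arrays. For time in A549 with GSI they ran from 0.0051 to 0.30. Promoter windows came from RefSeq (GRCh38.p14). Alternatives covered scaling, filtering, probe set choice, the variance model, the arrays in the fit and the replicates.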

Additional observations from a re-analysis of the deposited data

Results flagged for a closer look

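Single arrays far from the other 3 of their group were found in 11 of 240 groups of 4 (4.58%), where chance gives about 1 in 20. In H460a with vehicle for 6 h, replicate 3, the array with the high actin ratio, was at 13.7 for TYMS against 13.27 to 13.32 in the others and at 11.69 for SLBP against 11.2 to 11.25. Its mean over the 47 genes was 10.47, against 10.35 to 10.37. In the same group UHRF1 was at 11 in replicate 2, against 10.88 to 10.9.

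The other 7 lay in 4 groups. With GSI for 6 h in H460a, replicate 2 was at 13.41 for TYMS (others 13.27 to 13.29) and at 9.89 for POLA1 (others 9.73 to 9.75). With vehicle for 24 h in H460a, MCM4 was at 9.96 in replicate 2 (others 10.09 to 10.11). With GSI for 24 h in A549, TYMS was at 11.96 in replicate 3 (others 11.92 to 11.93) and GINS4 at 7.64 in replicate 1 (others 7.54 to 7.55). With vehicle for 6 h in A549, UHRF1 was at 10.07 in replicate 3 (others 10.29 to 10.31) and GINS4 at 8.4 in replicate 2 (others 7.94 to 7.98).

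Effects that differed between groups by an interaction term of the limma model were of 2 kinds. The GSI effect in A549 differed between 24 h and 6 h for 5 genes, CCNE2 by -0.8, UHRF1 by -0.55, MCM4 by -0.52, E2F8 by -0.48 and RFC5 by -0.38. The change with time in vehicle differed between H460a and A549 for 38 genes. Among these TIPIN differed by -1.21, CCNE2 and PCNA by -1.14, GINS1 by -1.07, RFC5 by -1.04, CDC6 by -0.99, RRM2 by -0.71, UHRF1 by -0.55, CCNE1 by -0.45, E2F1 by -0.38 and CDT1 by 0.41.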

How the results depend on the processing

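The count of members called with GSI in A549 at 6 h, 10 with the deposited values and all higher, was 1 after quantile normalization (CCNE1, lower), 6 with each array centred on its median, 0 without the 3 arrays that stood apart, 0 with only the arrays of the comparison, and 0 to 14 with 1 array left out. Over all genes 2301 rose and 299 fell there, against 265 and 292 after quantile normalization. At 24 h the count of 1 was 2 after quantile normalization (UHRF1 and MCM4), 2 with only the arrays of the comparison, and 1 to 2 with 1 array left out. The GSI effect in A549 between times, with 5 members, gave 13 with genes under the median level left out, 1 with the mean of all probe sets of a gene, 1 after quantile normalization, 8 with a trended and robust variance, 2 with the replicate block, 1 without the arrays that stood apart, 8 with only its own arrays, and 1 to 12 with 1 array left out. The cause was not tested.

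Quantile normalization reversed 4 named differences, RRM2 with GSI in A549 at 6 h (-0.0393), SLBP and POLA1 with time in A549 (-0.0530 and -0.0380) and PCNA between the lines at 6 h (0.29). With 1 array left out, the member counts were 24 to 29 for time in vehicle-treated A549, 45 to 46 in H460a, 36 to 41 and 46 with GSI, 30 to 34 and 42 to 45 between the lines at 24 h and 6 h, 36 to 39 for the time change between lines, and 0 for GSI in H460a at both times and for the other 2 GSI effects compared. Of 1531 recalculated values of 90 named differences, 1381 kept their direction and side of the threshold and 146 no longer passed. The replicate block gave 9 for GSI in A549 at 6 h and 45 for time in vehicle-treated H460a, and moved no count other than the one given above by more than 1.5 times.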

Other observations

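CDKN1B and RBL2, a pair of G1 to S regulators picked after their values were seen, were higher at 24 h in both lines and under both treatments. CDKN1B, which encodes p27, was higher at 24 h than at 6 h by 1.07 in A549 with vehicle, 0.61 in A549 with GSI, 0.87 in H460a with vehicle and 0.62 in H460a with GSI. RBL2, a retinoblastoma relative, was higher by 0.76, 0.33, 0.79 and 0.72 in the same 4 comparisons, all past the threshold. With GSI at 6 h in A549 both were higher as well, CDKN1B by 0.48 and RBL2 by 0.29, in the comparison that held the brighter GSI arrays.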
